A study of Mus musculus with 16 samples.

Results

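Interferon response genes were examined in the ileum of mice with and without hepatic Bcl6, with the T-cell chemokine Cxcl9 as the starting point. The set holds 47 of the 24940 genes in the count table. Cxcl9 was chosen by its call in the comparison of male LKO with male WT libraries, and the other 46 genes were listed with it as interferon response genes, with those results known. For the set, the male genotype comparison is therefore a description and supports nothing, and its values are given without p-values. All 47 symbols occurred once in the table and passed the filter on low counts in every fit.

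RNA-seq was performed on terminal ileum from C57BL/6 mice in 4 groups of 4 animals. WT mice carried 2 floxed Bcl6 alleles (Bcl6fl/fl) and no Cre, and LKO mice (Bcl6LKO) carried the same floxed alleles with Cre driven by the albumin promoter, in males and in females. Albumin-Cre deletes in hepatocytes, so Bcl6 remains intact by design in the tissue that was sequenced, and the age of the animals is not given in the sources used here. Each library was 1 mouse, and the comparisons asked how gene expression in the ileum differs when the liver lacks Bcl6, and whether the sexes differ.

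Interferons are cytokines that signal through paired receptors, Janus kinases and STAT proteins. Type I and type III interferons act through a complex that includes STAT2 and IRF9 and binds the interferon-stimulated response element (ISRE), whereas interferon gamma acts through the gamma-activated site (GAS). In the intestine, interferon gamma comes mainly from T cells and innate lymphocytes, and its targets include Cxcl9, the guanylate-binding proteins, the immunity-related GTPases and the antigen processing genes of epithelial cells. Type I and type III interferons induce antiviral effectors such as Isg15, Ifit1 and Oas1a, and many genes respond to every class.

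Promoter windows are shown for Cxcl9 and for members of the main roles, because both elements can be read in them. RefSeq promoter windows (GRCm38.p6, the mm10 build of the count table) run from 250 bases before to 50 bases after the transcription start, and 32 of the 47 members had a window whose start lay within 100 bases of the start in the count table. For the genes printed below, the bases after the start were also sought near the beginning of GENCODE transcripts. They were not found for Irgm2, Tgtp2 and Psmb8. The letter patterns were searched on both strands: TTTCNNTTTC for ISRE, TTCNNNGAA for GAS and GGGANTTCC for an NF-κB form that was picked after the Cxcl9 sequence had been read. The ISRE letters occurred in 21 of 32 member windows (65.6%) and in 3.4% of all 17282 windows. The GAS letters occurred in 11 of 32 (34.4%) and in 8.19% of all windows, and the NF-κB form in 2 of 32 (6.25%) and in 2% of all windows. A match describes the letters and is not a site of binding. In 4 immunity-related GTPase genes, the GAS letters began 11 bases upstream of the ISRE letters, an arrangement found in 5 windows of the whole table (0.0289%), of which the other one belonged to Gm12185. The 4 windows are shown 5′ to 3′ on the strand of the gene, with both elements in capitals.
Igtp: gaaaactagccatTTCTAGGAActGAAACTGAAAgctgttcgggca
Irgm2: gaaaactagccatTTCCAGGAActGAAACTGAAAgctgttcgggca
Tgtp1: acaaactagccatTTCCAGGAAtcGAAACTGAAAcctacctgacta
Tgtp2: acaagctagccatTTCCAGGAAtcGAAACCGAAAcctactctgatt

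These windows lie at chr11:58199498-58199543 (plus strand) for Igtp, chr11:58214889-58214934 (plus strand) for Irgm2, chr11:48992302-48992347 (minus strand) for Tgtp1 and chr11:49064261-49064306 (minus strand) for Tgtp2. The Igtp and Irgm2 windows shared 45 of 46 bases, and the Tgtp1 and Tgtp2 windows shared 38 of 46. Igtp and Tgtp1, which belong to different branches of the family, shared 33 of 46. In all 4, the ISRE letters lie on the strand opposite to the gene and appear as their reverse complement.

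The next windows show the ISRE without GAS letters in a guanylate-binding protein gene, in 2 antiviral effectors and in the chemokine Cxcl10, with the element in capitals. The promoter window of Cxcl10 also held the NF-κB form, at -103 from the start and outside the bases shown. Gbp2 lies at chr3:142620586-142620631 (plus), Isg15 at chr4:156200863-156200908 (minus), Ifit1 at chr19:34640776-34640821 (plus) and Cxcl10 at chr5:92349075-92349120 (minus). Isg15 held 3 overlapping matches and Ifit1 held 2 separate ones.
Gbp2: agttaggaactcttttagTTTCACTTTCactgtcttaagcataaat
Isg15: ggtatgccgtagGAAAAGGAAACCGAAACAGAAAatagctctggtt
Ifit1: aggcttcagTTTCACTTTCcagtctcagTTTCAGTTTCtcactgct
Cxcl10: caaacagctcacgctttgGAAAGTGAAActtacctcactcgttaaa

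The last windows show the GAS letters alone in Irf1 and Psmb8, and the NF-κB form in Cxcl9, which held neither ISRE nor GAS letters within its window. Irf1 lies at chr11:53769905-53769950 (plus), Psmb8 at chr17:34198079-34198124 (plus) and Cxcl9 at chr5:92328095-92328140 (minus).
Irf1: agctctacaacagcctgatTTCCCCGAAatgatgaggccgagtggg
Psmb8: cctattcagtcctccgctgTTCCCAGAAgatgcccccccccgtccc
Cxcl9: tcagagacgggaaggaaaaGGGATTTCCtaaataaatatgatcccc

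By role, the ISRE letters occurred in 5 of 5 immunity-related GTPase windows, 4 of 4 guanylate-binding protein windows and 7 of 11 antiviral effector windows. The GAS letters occurred in 4 of 5, 2 of 4 and 3 of 11 of these windows, respectively. Of the antigen processing genes, 1 of 4 windows held ISRE letters (B2m) and 1 of 4 held GAS letters (Psmb8). In the map of matches against distance from the start, Ddx58 and Ifih1 carried ISRE letters downstream of the start and the other members upstream.

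**Figure D1:**
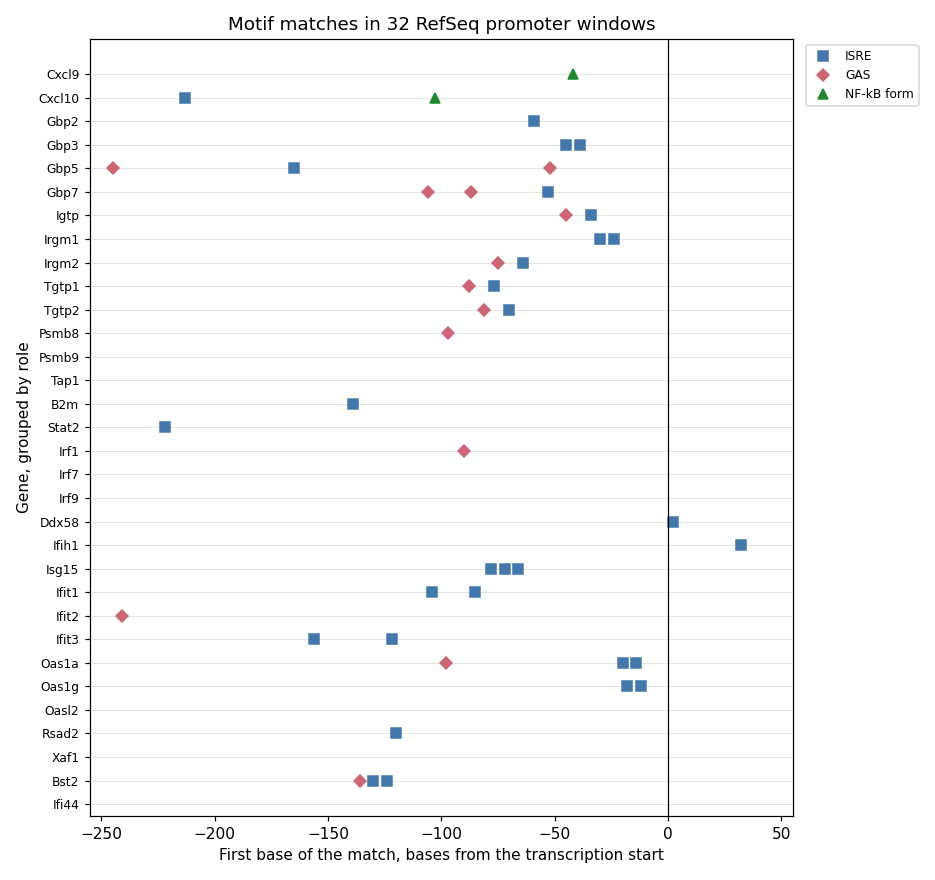
Positions of motif matches in the RefSeq promoter windows of 32 members, as the first base of the match in bases from the transcription start (vertical line). Squares mark ISRE letters (21 members), diamonds GAS letters (11 members) and triangles the NF-κB form (2 members, Cxcl9 and Cxcl10); in Igtp, Irgm2, Tgtp1 and Tgtp2 a diamond sits just before a square.

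Libraries held 15739601 to 20467119 gene counts, except female LKO replicate 1 at 60324336, and 3 counts corresponded to 0.0485 to 0.19 CPM, the read count scaled to library size. The 8 enterocyte markers, which include the ileal bile acid binding protein Fabp6, summed to 18850 to 24180 CPM in all libraries, with none at 0. Bcl6 itself was detected at 14.1 to 17.8 CPM in male WT and 17.3 to 21.8 in male LKO. In females it was at 9.25 to 15.1 CPM in WT and 15.2 to 26.1 in LKO. Its level checks no label because the deletion is hepatic. B-cell markers summed to 15.4 to 109 CPM in male WT, 19.6 to 23.2 in male LKO, 20.4 to 63.9 in female WT and 26.2 to 352 in female LKO, where replicates 2 and 3 stood at 185 and 352. The tissue was bulk ileum, in which fewer cells of a type and less RNA per cell cannot be told apart.

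Levels between genes were compared per length, as RPKM (CPM divided by the exon length in kilobases), averaged over the 16 libraries. B2m, the light chain of MHC class I, was highest at 1802 RPKM. It was followed by the transcription factor Irf1 at 188 RPKM, the immunoproteasome subunits Psmb8 at 149 and Psmb9 at 117 RPKM, and Irf7 at 80.9 RPKM. Cxcl9 ranked 27 of 47 at 8.83 RPKM and Cxcl10 ranked 30 at 8.01 RPKM. The lowest were Mx2 at 1.49 RPKM and Oas2 at 1.96 RPKM.

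The chemokines Cxcl9 and Cxcl10 recruit T cells and NK cells that bear the receptor CXCR3, and their genes neighbour each other on chromosome 5 (mm10, chr5:92321331-92328079 and chr5:92346639-92348889, 18.6 kb apart). Cxcl9 was at 16.1, 17.1, 20.3 and 17.97 CPM in the 4 male WT mice, 29.3, 24.4, 30.5 and 29.5 CPM in male LKO, 39.3, 28.5, 27.9 and 19.3 CPM in female WT and 41.7, 13.8, 24.6 and 29.2 CPM in female LKO. The 4 male WT values lay below all 4 male LKO values, whereas both female groups spread across a wider range and overlapped. The group means were 17.9 ± 1.80 CPM in male WT, 28.4 ± 2.71 in male LKO, 28.8 ± 8.20 in female WT and 27.4 ± 11.6 in female LKO (SD, n = 4 each), so male WT was the lowest and the other 3 means lay within the spread of the female groups. Cxcl10 was at 5.42, 5.08, 5.97 and 6.55 CPM in the 4 male WT mice, 10.49, 7.73, 10.6 and 10.9 CPM in male LKO, 10.2, 9.88, 12.9 and 6.21 CPM in female WT and 13.6, 6.22, 9.26 and 9.22 CPM in female LKO. The male groups again did not overlap and the female groups did. RNA of the related chemokine gene Cxcl11 was barely detected, at 0.406 to 2.08 CPM.

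**Figure D2:**
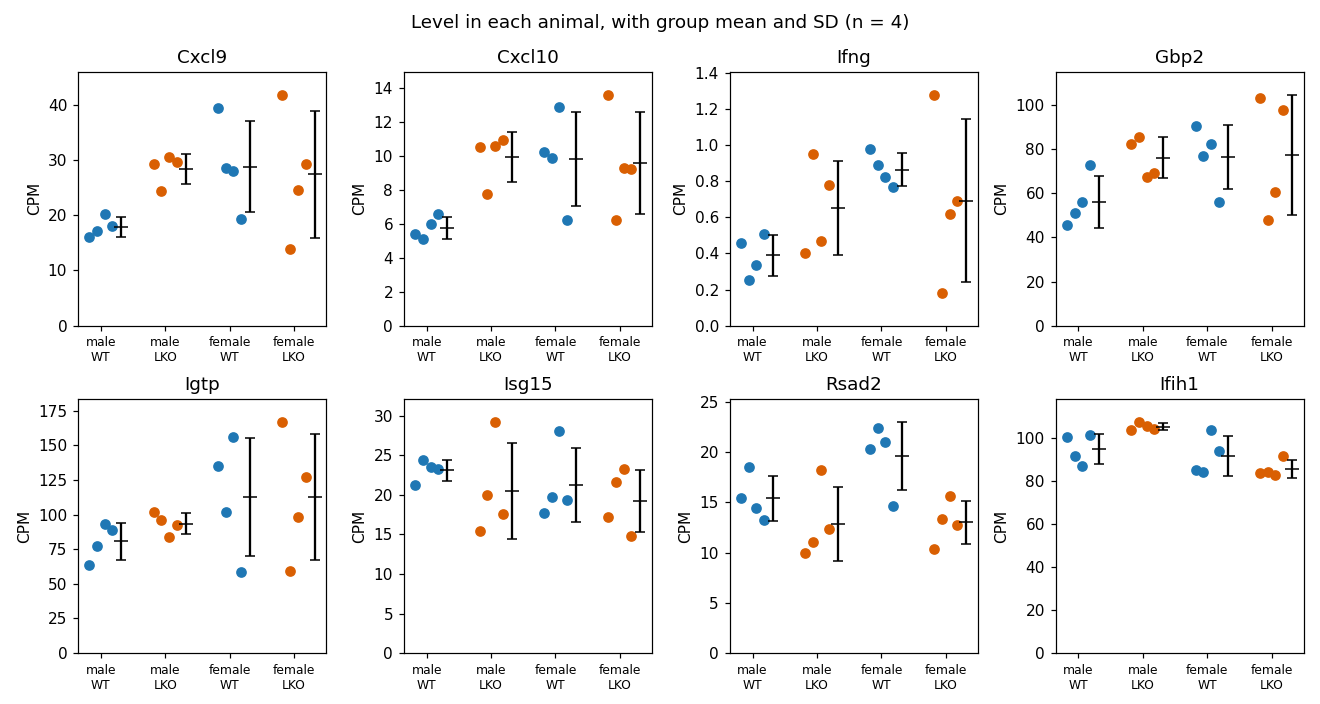
Level in CPM of 7 members and of Ifng in every animal, by sex and genotype (blue, WT; orange, LKO); the black bar is the group mean with its SD, n = 4. Male WT values of Cxcl9 lie between 16.1 and 20.3 CPM and male LKO values between 24.4 and 30.5 CPM, while the female groups overlap.

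The transcription factors of the set relay interferon signals. Irf1, a target and mediator of interferon gamma, was at 351, 399, 454 and 393 CPM in the 4 male WT mice, 412, 416, 355 and 397 CPM in male LKO, 418, 369.7, 485 and 320.1 CPM in female WT and 529.9, 343, 367 and 396 CPM in female LKO. Irf7, which amplifies type I interferon production, was at 130.3, 156, 170.1 and 171 CPM in the 4 male WT mice, 143, 163, 144 and 133 CPM in male LKO, 146, 150.2, 168 and 133 CPM in female WT and 129.9, 142, 189 and 119 CPM in female LKO. Stat2, a subunit of the ISRE-binding complex, was at 98.3, 106, 124 and 117 CPM in the 4 male WT mice, 96.5, 98.04, 117 and 92.6 CPM in male LKO, 104, 98.6, 122 and 83.04 CPM in female WT and 90.3, 94.8, 114 and 88.4 CPM in female LKO. Irf9, the DNA-binding subunit of that complex, was at 52.2, 53.6, 59.5 and 60.01 CPM in the 4 male WT mice, 57.6, 54.8, 59.1 and 61.2 CPM in male LKO, 56.4, 63.4, 65.7 and 49.5 CPM in female WT and 62.03, 53.6, 66.2 and 57.1 CPM in female LKO. The 4 groups overlapped for each of these genes.

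Guanylate-binding proteins and immunity-related GTPases are large GTPases that attack the vacuoles of intracellular microbes. Gbp2 was at 45.5, 50.9, 55.95 and 72.6 CPM in the 4 male WT mice, 82.4, 85.7, 67.5 and 69.3 CPM in male LKO, 90.3, 77.1, 82.4 and 56 CPM in female WT and 103, 47.9, 60.4 and 97.8 CPM in female LKO. The highest male WT value exceeded the 2 lowest male LKO values, so the groups overlapped. Igtp, which encodes Irgm3, was at 63.5, 77.2, 93.1 and 88.7 CPM in the 4 male WT mice, 102, 95.8, 83.8 and 92.4 CPM in male LKO, 135, 102, 156 and 58.6 CPM in female WT and 167, 59.1, 97.9 and 127 CPM in female LKO. Both female groups spread more widely than the 8 males, and each held values above and below all male values. Iigp1, the effector Irga6, was at 29.5, 31.6, 39.6 and 46.1 CPM in the 4 male WT mice, 45.3, 49.3, 53.5 and 46.6 CPM in male LKO, 65.9, 47.04, 72.1 and 30.5 CPM in female WT and 75.01, 28.2, 42.3 and 72.05 CPM in female LKO. Gbp5, a promoter of inflammasome assembly, was at 8.77, 9.84, 12.7 and 11.7 CPM in the 4 male WT mice, 12.01, 12.7, 14.2 and 13.4 CPM in male LKO, 16.1, 14.6, 15.5 and 11.4 CPM in female WT and 17.6, 11.9, 15.03 and 14.8 CPM in female LKO. Male WT replicate 1 was the lowest and female LKO replicate 1 the highest. Tgtp1, an immunity-related GTPase that was first found in T cells, was at 4.41, 6.28, 7.21 and 8.33 CPM in the 4 male WT mice, 9.22, 8.09, 7.58 and 7.58 CPM in male LKO, 8.51, 7.83, 17.1 and 4.78 CPM in female WT and 17.1, 5.86, 9.20 and 13.03 CPM in female LKO. Tgtp1 and Tgtp2 are near copies, as are several Gbp genes, and because only uniquely mapped reads were counted their separate values are uncertain. Tgtp2 was at 10.9 to 29.9 CPM. The same holds for the antiviral genes Oas1a and Oas1g.

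Antigen processing members cut, transport and present peptides on MHC class I. B2m was at 1355, 1436, 1578 and 1440 CPM in the 4 male WT mice, 1495, 1486, 1218 and 1385 CPM in male LKO, 1771, 1617, 1766 and 1416 CPM in female WT and 1943, 1277, 1656 and 1724 CPM in female LKO. Tap1, a subunit of the peptide transporter, was at 132, 163, 196 and 133 CPM in the 4 male WT mice, 151, 166, 152 and 162 CPM in male LKO, 199, 192, 260.1 and 138 CPM in female WT and 241, 131, 218 and 208 CPM in female LKO. Psmb8 was at 152, 166, 214 and 172 CPM in the 4 male WT mice, 163, 173, 128 and 153 CPM in male LKO, 193, 193, 213 and 157 CPM in female WT and 249, 143, 204 and 215 CPM in female LKO. Male LKO replicate 3 was the lowest of the 16 libraries for Psmb8 and B2m. Ido1, which degrades tryptophan, was also lowest there, at 49.8, 69.7, 79.4 and 64.8 CPM in the 4 male WT mice, 69.6, 85.2, 39.9 and 69.7 CPM in male LKO, 80.3, 79.8, 95.3 and 67.1 CPM in female WT and 120.2, 50.8, 65.9 and 80.5 CPM in female LKO.

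Nucleic acid sensors detect foreign RNA or DNA. Zbp1, a sensor of Z-form nucleic acid, was at 59.6, 75.2, 97.7 and 115 CPM in the 4 male WT mice, 96.2, 107, 95.6 and 95.8 CPM in male LKO, 94.6, 97.8, 109 and 49.7 CPM in female WT and 116, 54.6, 93.2 and 91.6 CPM in female LKO. Ddx58 (RIG-I, a sensor of viral RNA) was at 60.4, 68.2, 64.1 and 52.8 CPM in the 4 male WT mice, 50.4, 54.4, 61.3 and 54.2 CPM in male LKO, 65.6, 65.8, 76.8 and 64.6 CPM in female WT and 52.3, 54.4, 63.6 and 52.7 CPM in female LKO. In females, all 4 LKO values of Ddx58 lay below the lowest WT value of 64.6 CPM. Ifih1 (MDA5, a sensor of long double-stranded RNA) ranged from 82.7 to 107 CPM, with all 4 male LKO values above the highest male WT value.

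Antiviral effectors act on viral RNA, proteins or budding. Isg15, a ubiquitin-like modifier, was at 21.2, 24.4, 23.6 and 23.2 CPM in the 4 male WT mice, 15.4, 19.98, 29.2 and 17.6 CPM in male LKO, 17.8, 19.7, 28.1 and 19.4 CPM in female WT and 17.2, 21.7, 23.3 and 14.8 CPM in female LKO. Ifit1, which binds viral RNA, was at 46.7, 55.02, 48.6 and 56.6 CPM in the 4 male WT mice, 48.4, 53.9, 52.7 and 47.9 CPM in male LKO, 63.7, 50.03, 68.1 and 50.1 CPM in female WT and 60.6, 40.3, 53.2 and 38.2 CPM in female LKO. Rsad2 (viperin, which makes a chain-terminating nucleotide) was at 15.4, 18.5, 14.5 and 13.2 CPM in the 4 male WT mice, 9.93, 11.1, 18.2 and 12.3 CPM in male LKO, 20.3, 22.4, 20.99 and 14.7 CPM in female WT and 10.4, 13.3, 15.6 and 12.7 CPM in female LKO. Oas2, which makes the activator of RNase L, was at 8.41, 9.07, 8.17 and 9.90 CPM in the 4 male WT mice, 5.62, 7.31, 11.4 and 5.29 CPM in male LKO, 7.30, 9.44, 10.7 and 6.32 CPM in female WT and 5.70, 5.67, 9.54 and 3.92 CPM in female LKO. Xaf1, an apoptosis factor, was at 12.5, 12.8, 13.5 and 12.7 CPM in the 4 male WT mice, 8.91, 11.6, 13.04 and 9.86 CPM in male LKO, 12.7, 13.9, 15.2 and 11.7 CPM in female WT and 11.9, 10.9, 16.7 and 9.64 CPM in female LKO. For Isg15 and Oas2, male LKO replicate 3 held the highest value of all 16 libraries, although its Psmb8 and Ido1 values were the lowest.

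**Figure D3:**
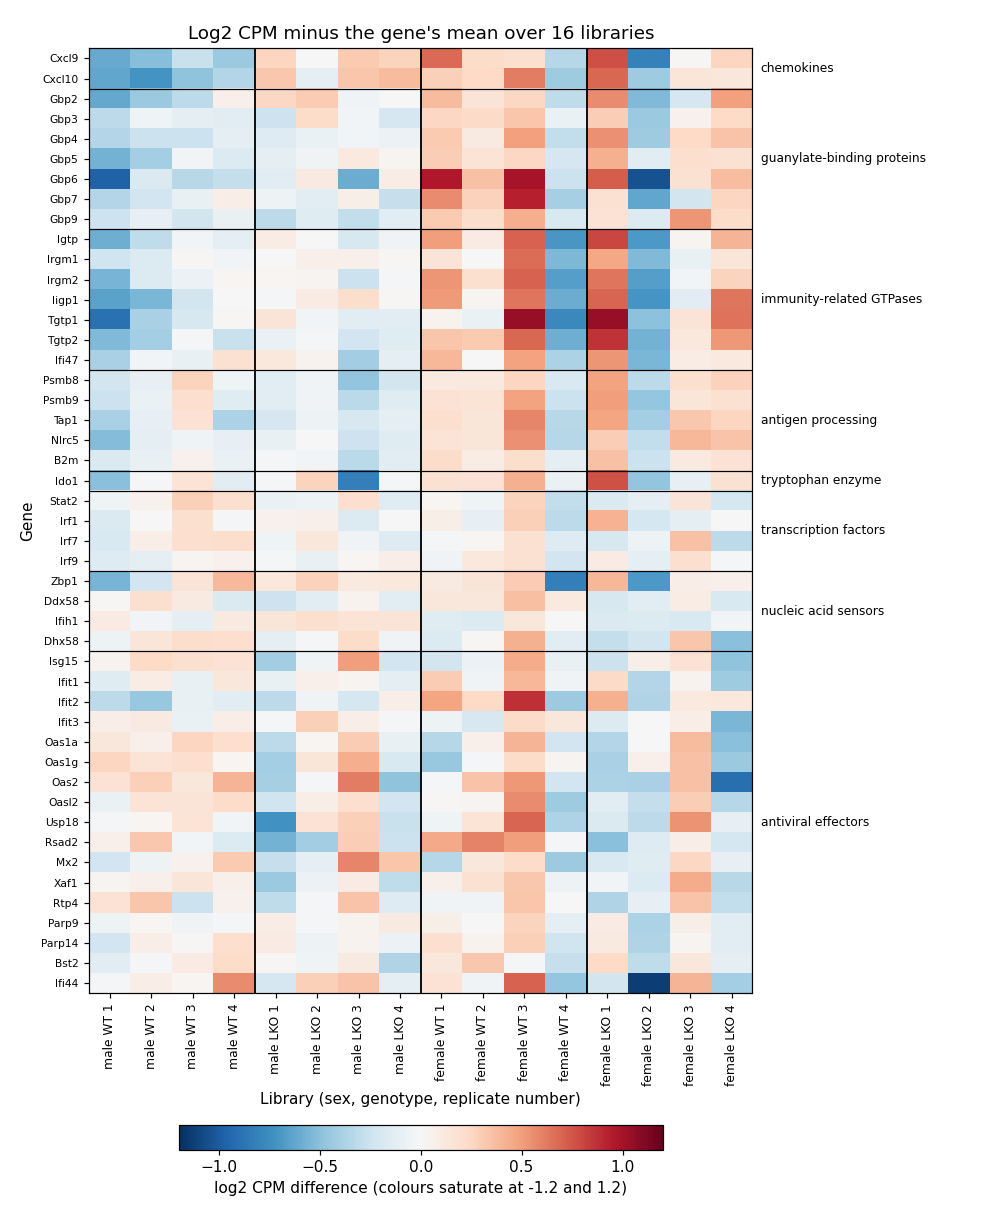
Log2 CPM of each of the 47 members (rows, grouped by role) in each of the 16 libraries (columns, vertical lines between groups), minus the gene's mean over all libraries. Red is above and blue below the mean; the GTPase and antigen processing rows share a pattern across columns, with female WT replicate 3 and female LKO replicate 1 above and female WT replicate 4 and female LKO replicate 2 below, and the antiviral effector rows follow it less.

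In males, Cxcl9 was higher in LKO than in WT by 0.68 ± 0.098 (SE) on the log2 scale and Cxcl10 by 0.79 ± 0.14 (SE), as fitted by edgeR. Of the GTPases, Iigp1 differed by 0.41 ± 0.13 (SE) and Gbp2 by 0.44 ± 0.14 (SE). Of the members lower in LKO, Xaf1 stood at -0.25 ± 0.12 (SE), Psmb8 at -0.19 ± 0.11 (SE), Ddx58 at -0.15 ± 0.086 (SE) and Stat2 at -0.14 ± 0.087 (SE). Because Cxcl9 was chosen by this contrast, its call is no finding: 1 of 47 members (Cxcl9) was past an adjusted p of 0.05 where 8 of 15169 genes tested were (0.0527%). Members whose male groups did not overlap numbered 3 with LKO higher (Cxcl9, Cxcl10 and Ifih1, background 1.63%) and 0 with LKO lower (background 1.25%). The number at the start of the sample titles was lower for all 4 male WT than for all 4 male LKO mice, and the labels do not say what it marks. With that number as a covariate, added after the data were seen, the Cxcl9 difference was 0.64. No member was then called, and 3 genes were called in all, against 8 without it. Without male WT replicate 1, no member was called either, among 5 genes in all. Without male WT replicate 4 there were 4 (Cxcl9, Cxcl10, Gbp2 and Iigp1) among 29 genes in all, and without male LKO replicate 2 there were 2 (Cxcl9 and Cxcl10) among 13.

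The male differences by role were positive for 6 of 7 guanylate-binding proteins (median 0.16) and 6 of 7 immunity-related GTPases (median 0.18), and negative for 13 of 17 antiviral effectors (median -0.11). Genes within these roles tended to vary together between animals, so counts by sign are not separate observations here or below. Over all 47 members the median was 0.01, with 24 positive and 23 negative, beside a median of -0.002 over all genes tested. Markers of cytotoxic and NK cells, a source of interferon gamma, summed to 153 to 247 CPM in male WT and 138 to 162 CPM in male LKO. Of 9 tested markers, 7 were lower in male LKO (median -0.23), 3 of them at an unadjusted p under 0.05 (background 2.28%). In females, 7 of 9 were also lower in LKO (median -0.27), 2 of them at that p (background 6.75%). Their part in the result was not tested.

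In females, no member passed edgeR's quasi-likelihood test after Benjamini-Hochberg adjustment, where 6 of 15298 genes did (0.0392%). Rsad2 was lower in LKO, at a log2 difference of -0.60 ± 0.15 (SE), adjusted p = 0.223 in that edgeR test, and the lowest WT value of 14.7 CPM lay below the highest LKO value of 15.6 CPM. Ddx58 was also lower, at -0.29 ± 0.082 (SE), edgeR adjusted p = 0.285, without overlap of the groups. At an unadjusted p under 0.05, 0 members were higher (background 4.95%) and 2 were lower (background 6.75%), a share of members below the background. Groups did not overlap for 0 members with LKO higher (background 2.63%) and for 1 with LKO lower (Ddx58, background 3.67%). DESeq2 called 155 genes in all and 1 member, Rsad2 (log2 fold change -0.59, DESeq2 adjusted p = 0.0272).

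Cxcl9 and Cxcl10 did not differ detectably between the female genotypes. The Cxcl9 difference was -0.04 ± 0.36 (SE), edgeR adjusted p = 0.974, and that of Cxcl10 was -0.00 ± 0.27 (SE), edgeR adjusted p = 0.995. Both standard errors exceeded those in males. Of 17 antiviral effectors, 16 were lower in female LKO (median -0.15), for example Oas2 at -0.45 ± 0.26 (SE) and Ifit1 at -0.26 ± 0.17 (SE), while the 14 GTPase genes were split 8 to 6 (median 0.01). Higher values in LKO were found for Tgtp1 at 0.27 ± 0.47 (SE), Psmb8 at 0.11 ± 0.16 (SE), Gbp5 at 0.06 ± 0.14 (SE) and Irf9 at 0.03 ± 0.095 (SE), each within its spread between animals. The median over all 47 members was -0.06 with 16 positive and 31 negative, against 0.007 over all genes tested. Its sign rested on single libraries, since it was 0.053 without female WT replicate 3, 0.0459 without female LKO replicate 2 and -0.17 without female WT replicate 4. All 6 tested B-cell markers were higher in female LKO at a median of 2.53 on the log2 scale, and their part in these values was not tested.

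**Figure D4:**
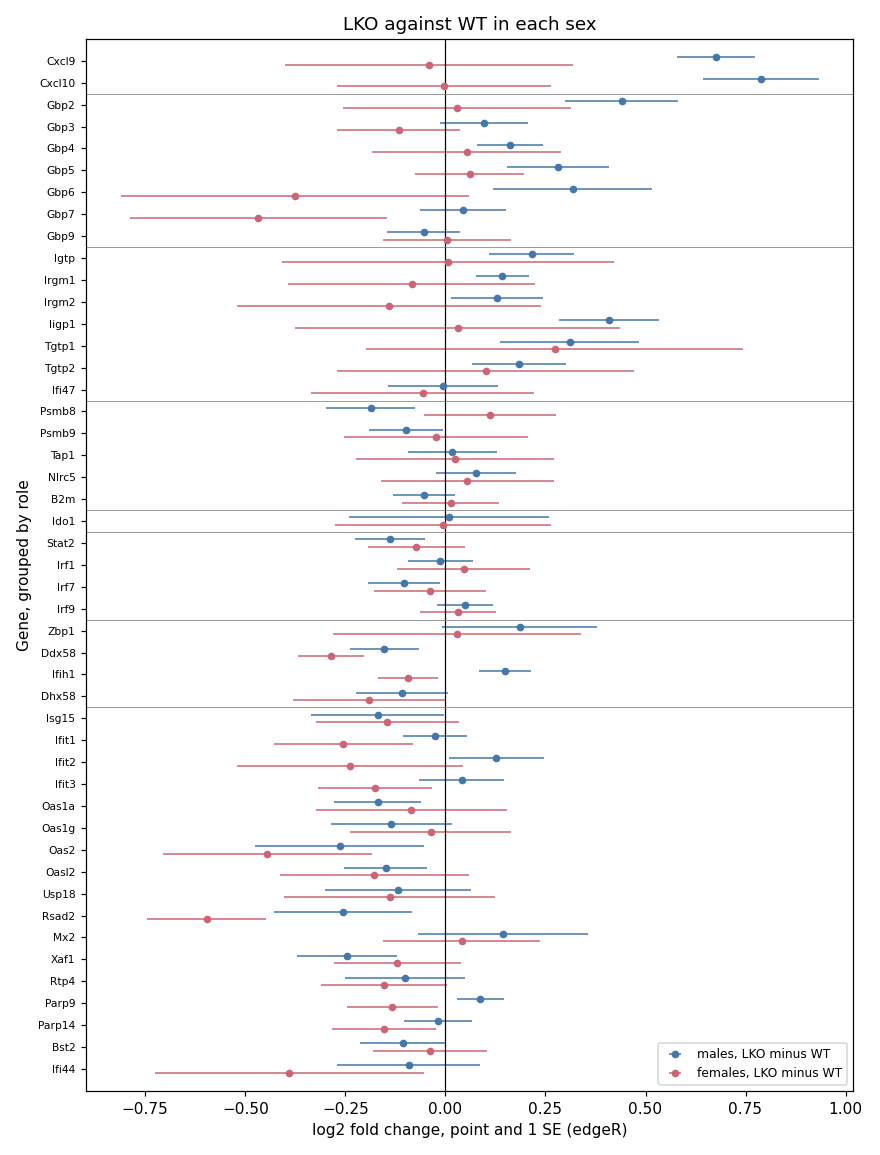
Log2 fold change of LKO against WT for the 47 members, grouped by role, in males (blue) and females (red); points are edgeR estimates and bars 1 SE. Cxcl9 and Cxcl10 stand at 0.68 and 0.79 in males and near 0 in females, and most antiviral effectors lie left of 0 in both.

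With both sexes in 1 fit, adjusted for sex, no member passed the adjusted edgeR test (42 of 15598 genes did, 0.269%), and DESeq2 called 0 members among 224 genes. Without male WT replicate 4 edgeR called Ddx58 among 102 genes, and without male LKO replicate 3 it called Rsad2 among 40 genes. At an unadjusted p under 0.05, 0 members were higher (background 4.67%) and 2, Ddx58 and Rsad2, were lower (background 6.57%). Ddx58 was at -0.22 ± 0.061 (SE), edgeR adjusted p = 0.127, and Rsad2 at -0.43 ± 0.13 (SE), edgeR adjusted p = 0.17. Of the antiviral effectors, 16 of 17 were negative (median -0.13), with Oas2 at -0.36 ± 0.18 (SE) and Xaf1 at -0.19 ± 0.10 (SE). Positive values included Cxcl10 at 0.37 ± 0.18 (SE), Cxcl9 at 0.30 ± 0.21 (SE), Gbp2 at 0.23 ± 0.17 (SE) and Gbp5 at 0.16 ± 0.096 (SE). This fit shares its libraries with the separate fits of each sex and is not a second observation.

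The difference between the male and female genotype effects was tested as an interaction. No gene passed the adjusted edgeR test (0 of 15598, 0%) and DESeq2 called 0 members, and at an unadjusted p under 0.05 there were 2 members with a more positive effect in males (background 2.58%) and 0 with a more negative one (background 3.05%). Cxcl10 had an interaction of 0.79 ± 0.31 (SE), edgeR adjusted p = 0.845, and Ifih1 of 0.24 ± 0.098 (SE), edgeR adjusted p = 0.845. For Cxcl9 it was 0.71 ± 0.38 (SE), edgeR adjusted p = 0.845. That estimate includes the male effect by which Cxcl9 was chosen, so its size and p-value give no independent support. Parp9, a partner of an antiviral ubiquitin ligase, was at 0.21 ± 0.13 (SE). The more negative values in males were -0.30 ± 0.22 (SE) for Psmb8, -0.13 ± 0.21 (SE) for Xaf1, -0.07 ± 0.15 (SE) for B2m and -0.07 ± 0.16 (SE) for Stat2. The call of Cxcl9 in males and its absence in females are therefore not shown to differ.

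The sexes were then compared within each genotype. In WT, no member passed the adjusted edgeR test (38 of 15229 genes did, 0.25%). At an unadjusted p under 0.05, 11 members (23.4%) were lower in males (background 7.72%) and 0 were higher (background 6.21%). They were Cxcl9, Cxcl10, B2m, Rsad2, Ifit2 and 6 of the 7 guanylate-binding proteins. Groups did not overlap for 0 members with males higher (background 4.02%) and for 0 with males lower (background 4.14%). This comparison shares the 4 male WT libraries with the contrast that chose Cxcl9, so it gives no independent support to the male result. DESeq2 called 2 members, Cxcl9 and Cxcl10, among 241 genes, and edgeR without female WT replicate 4, whose values were low, called 6 among 64 genes.

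Cxcl10 was lower in male than in female WT, at a log2 difference of -0.77 ± 0.19 (SE), edgeR adjusted p = 0.125, and so was Cxcl9, at -0.69 ± 0.19 (SE), edgeR adjusted p = 0.184. Gbp3 stood at -0.35 ± 0.099 (SE) and Gbp9 at -0.38 ± 0.12 (SE). The groups overlapped for each of these genes. The highest male WT and lowest female WT values were 6.55 and 6.21 CPM for Cxcl10, and 20.3 and 19.3 CPM for Cxcl9. Values above 0 were small, at 0.20 ± 0.12 (SE) for Oas1g, 0.16 ± 0.14 (SE) for Oas1a, 0.13 ± 0.11 (SE) for Stat2 and 0.12 ± 0.13 (SE) for Isg15. The 14 GTPase genes were all negative (median -0.45), all 5 antigen processing genes were negative (median -0.23), and the antiviral effectors were split 9 to 8 (median 0.008). The GTPase and antigen processing genes varied together between animals, so these counts are not separate observations. Against its mean over all libraries, the average log2 CPM of the immunity-related GTPases ran from -0.55 to -0.03 in male WT and from -0.60 to 0.71 in female WT. The median over all 47 members was -0.17, against -0.007 over all genes tested, and it was -0.0787 without female WT replicate 3. Markers of smooth muscle were also lower in males. They summed to 3198 to 3605 CPM in male WT and 3520 to 5467 CPM in female WT, all 6 were negative and 5 had an unadjusted p under 0.05. Their part in the result was not tested.

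In LKO, no member passed the adjusted edgeR test between the sexes (15 of 15250 genes did, 0.0984%). At an unadjusted p under 0.05, 1 member was higher in males (Ifih1, background 10.9%) and 3 were lower (Gbp9, Nlrc5 and Psmb8, background 11.7%). Ifih1 was at 0.30 ± 0.057 (SE), edgeR adjusted p = 0.0612, Gbp9 at -0.44 ± 0.13 (SE), edgeR adjusted p = 0.0982, Nlrc5, the activator of MHC class I genes, at -0.33 ± 0.14 (SE) and Psmb8 at -0.40 ± 0.17 (SE). B2m was at -0.24 ± 0.12 (SE), while Ifit3, Ifi44 and Parp9 were positive at 0.23 ± 0.14 (SE), 0.33 ± 0.27 (SE) and 0.13 ± 0.093 (SE). Cxcl9 and Cxcl10 lay near 0, at 0.03 and 0.03. Both shares of members were below the background. DESeq2 called 2 members, Gbp9 and Ifih1, among 1016 genes. Without female LKO replicate 2 edgeR called 2, Nlrc5 and Tap1, among 28 genes, and without female LKO replicate 4 it called Ifih1 among 665 genes. All 5 tested B-cell markers were lower in male LKO at an unadjusted p under 0.05 (median -3.02), as were 5 of 6 smooth muscle markers (median -0.45), 6 of 10 T-cell markers (all 10 negative, median -0.45) and 4 of 11 macrophage and dendritic cell markers (median -0.20). Of the macrophage and dendritic cell markers, 1 was higher at that p. Enterocyte markers went the other way, with 3 of 8 higher at that p and 7 positive (median 0.15). Of 6 plasma cell markers, 1 was higher and 2 were lower at that p. T-cell markers summed to 82.3 to 94.97 CPM in male LKO and 97.96 to 178.5 CPM in female LKO. The part of all these markers in the result was not tested.

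Members also varied between animals of the same group. After each group's mean was removed, Pearson's correlation between pairs of immunity-related GTPases over the 16 libraries had a median of 0.933 (range 0.825 to 0.99). The median was 0.836 between them and the guanylate-binding proteins and 0.859 between them and the antigen processing genes, but 0.224 between them and the antiviral effectors, whose own pairs had a median of 0.552. All 16 points share libraries and scaling across genes, so these values are descriptions. Female WT replicate 3 held the highest value of 18 members and female LKO replicate 1 that of 15, while female LKO replicate 2 held the lowest of 12 and female WT replicate 4 that of 10.

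Averaged over the 14 GTPase genes, female LKO replicate 1 stood 0.57 and female WT replicate 3 0.62 above the gene means on the log2 scale, while female LKO replicate 2 stood -0.54, male WT replicate 1 -0.52 and female WT replicate 4 -0.43 away from them. Over the 17 antiviral effectors, the extremes were 0.41 in female WT replicate 3 and -0.31 in female LKO replicate 4, which stood at 0.35 for the GTPases. Female LKO replicate 1 held above-mean values for 14 of 14 GTPase genes and 5 of 17 antiviral effectors. The reverse held in male LKO replicate 3, with 4 of 14 and 16 of 17.

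**Figure D5:**
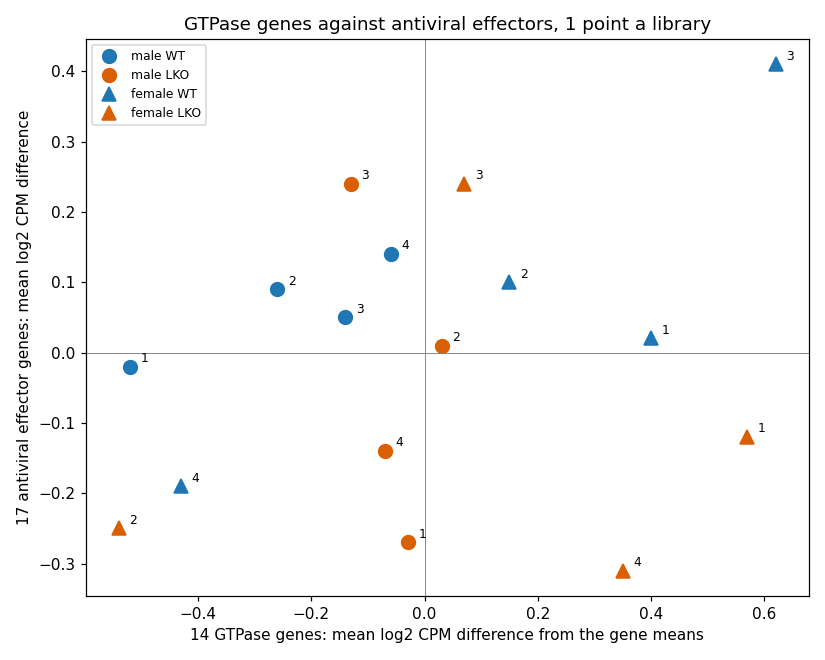
Mean log2 CPM difference from the gene means for 14 GTPase genes (horizontal) and 17 antiviral effector genes (vertical), 1 point for each library; circles are males and triangles females, blue WT and orange LKO, with the replicate number beside each. Female LKO replicates 1 and 4 lie to the right and below 0, male LKO replicate 3 lies above and left of 0, and female WT replicate 3 is highest in both.

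The genes whose levels followed Cxcl9 most closely, by Spearman's rho over 16 libraries with group means removed, were Iigp1 (0.782), Gbp5 (0.768), Cxcl10 (0.706), Irgm1 (0.706) and Igtp (0.703). The lowest were Ifit3 (-0.724), Oas1g (-0.576), Rtp4 (-0.55), Isg15 (-0.397) and Oas1a (-0.382). These are descriptions over the 47 members.

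The ligand Ifng, which encodes interferon gamma, was near the detection limit, with 3 to 79 reads a library. It was at 0.456, 0.254, 0.338 and 0.508 CPM in the 4 male WT mice, 0.405, 0.951, 0.470 and 0.778 CPM in male LKO, 0.977, 0.888, 0.822 and 0.769 CPM in female WT and 1.28, 0.183, 0.617 and 0.689 CPM in female LKO. In WT, all 4 male values lay below all 4 female values (background 4.14%). The difference was -1.11 ± 0.33 (SE), with an edgeR adjusted p of 0.18. Pearson's r and Spearman's rho of log2 CPM with Ifng over the 16 libraries are given for 6 members as descriptions, without a test, because they were picked after the values had been seen, Cxcl9 was chosen by values that enter them, and male WT was the lowest group for both Cxcl9 and Ifng. They were 0.748 and 0.624 for Cxcl9, 0.735 and 0.756 for Gbp2, 0.657 and 0.603 for Cxcl10, and 0.641 and 0.65 for Igtp. For Isg15 they were -0.341 and -0.406, and for Oas1a -0.297 and -0.318.

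Without female LKO replicate 2 and male WT replicate 2, whose Ifng lay farthest from the median, r was 0.588 for Cxcl9, 0.609 for Gbp2, 0.528 for Cxcl10 and 0.516 for Igtp. Within males (n = 8), it was 0.442 for Cxcl9, 0.609 for Gbp2, 0.494 for Cxcl10 and 0.315 for Igtp, and within females 0.879, 0.77, 0.71 and 0.698. The values within 1 sex were lower in males for all 4 genes.

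The genes of other interferons were almost silent. Of the 20 ligand genes listed, those other than Ifng reached at most 2 reads in any library, below the floor of 3 counts. The receptors were expressed, with Ifngr1 at 271 to 328 CPM, Ifngr2 at 180.4 to 233 CPM and the type I receptor chain Ifnar1 at 65.7 to 76.02 CPM. None of the 6 receptor genes passed the adjusted edgeR test in any of the 6 comparisons.

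Of the 40 other interferon-induced genes listed, none passed the adjusted edgeR test in males (39 tested) or females (40 tested). At an unadjusted p under 0.05, 0 were higher (background 3.01%) and 4 lower (background 2.28%) in male LKO, and 0 higher and 1 lower in female LKO (backgrounds 4.95% and 6.75%). In males, Ifitm1, which blocks virus entry, was at -0.35 ± 0.094 (SE) (edgeR adjusted p = 0.376) and Oas3 at -0.32 ± 0.11 (SE) (edgeR adjusted p = 0.671). Between the sexes in WT, 3 of the 40 were higher and 3 lower in males at an unadjusted p under 0.05. Both shares were near the backgrounds of 6.21% and 7.72%. Gbp8, a further guanylate-binding protein, was lower in male than in female WT, at -0.76 ± 0.23 (SE) (edgeR adjusted p = 0.241), and Ubd, a ubiquitin-like protein induced by interferon gamma, at -1.23 ± 0.41 (SE) (edgeR adjusted p = 0.287). None of the 7 inhibitors listed passed the adjusted edgeR test in males or females. In male LKO, 5 were higher and 2 lower, and 1 was higher at an unadjusted p under 0.05 (background 3.01%). Of these inhibitors, Socs3 stood at 124 and 123 CPM in male LKO replicates 3 and 4 and at or below 71.9 CPM in all others. This describes 2 libraries of 1 gene.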

How the data were processed

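Raw gene counts were deposited by the authors as a table of 16 ileum libraries. Per the study's methods, libraries were made with the TruSeq Stranded mRNA kit, sequenced as single-end reads, and aligned uniquely to mm10 with STAR 2.5.2; the authors counted exons with HOMER 4.10 and did not state a strand option. No deposited value was normalized.

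Here, counts were scaled by TMM and tested with edgeR 4.0.16 (quasi-likelihood, robust, filterByExpr, Benjamini-Hochberg over all genes tested, threshold 0.05) in R 4.3.3; DESeq2 1.42.0 was the alternative. CPM and RPKM used the same scaling and, for RPKM, the exon length of the table. Log2 CPM used a prior count of 2. Role groups, the naming rule (members past the threshold, then up to 4 in each direction with the smallest p at 1 CPM or more, with Cxcl9 and Cxcl10 always) and the Ifng relations followed from lists chosen with earlier results of these data known. Alternatives were other scalings, no filter, a stricter filter, all 16 libraries in 1 fit, the title number as a covariate or as sets of neighbouring numbers, the deepest library thinned, the replicate block and leaving out each library. The fits were tested on simulated counts with planted changes larger than any member difference reported here. Genes were drawn separately, without shared variation between animals, so that test does not cover differences of the size seen here. A pathway gene outside the set that the naming rule lists is not reported here. Nothing says that replicates came from separate litters or batches, so p-values measure only the spread between these mice. Precision rests on 15739601 to 60324336 gene counts a library, and the floor of 3 counts covers counting error only.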

Additional observations from a re-analysis of the deposited data

Results flagged for a closer look

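Within groups of 4 mice, the highest or lowest value was compared with the gap to its nearest neighbour for the 22 members described by animal, which gave 88 sets of 4. A single value stood apart in 3 of them, and chance alone sets apart about 1 in 20. Cxcl10 in male LKO replicate 2 was 7.73 CPM, below the other 3 at 10.49 to 10.95 CPM. Zbp1 in the same library was 106.8 CPM, above the other 3 at 95.6 to 96.3 CPM. Ddx58 in female WT replicate 3 was 76.8 CPM, above the other 3 at 64.6 to 65.8 CPM. No genotype effect differed between the sexes at an adjusted edgeR p under 0.05.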

How the results depend on the processing

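The counts of called members depended on the processing in males. In that comparison, 1 member (Cxcl9) was called, and 2 were called without the low-count filter and with DESeq2 (Cxcl9 and Cxcl10, among 25 and 63 genes against 8). With all 16 libraries in the fit, 0 were called, among 4 genes in all. In an analysis added after the data were seen, with the title number as a covariate, 0 were called among 3 genes. Leaving out 1 library gave 0 (without male WT replicate 1, among 5 genes) to 4 (without male WT replicate 4, among 29). In females, DESeq2 called 1 and edgeR called 0. With both sexes, leaving out 1 library gave 0 to 1 (Ddx58 without male WT replicate 4, Rsad2 without male LKO replicate 3). Between the sexes in WT, DESeq2 called 2 and leaving out 1 library gave 0 to 6 (without female WT replicate 4). In LKO, DESeq2 called 2 (of 1016 genes in all), no filter called 1 (of 139), all 16 libraries in the fit called 1 (of 403), against 15 genes in all with edgeR, and leaving out 1 library gave 0 to 2 (without female LKO replicate 2). With the replicate block, 1 member was called in males and 0 in each other comparison, as in the fits without it (same-numbered libraries correlated at -0.104 to 0.256 after group means were removed, so the numbers were not taken as pairs). With 1 library left out, the median over the 47 members ranged from -0.0699 to 0.0522 in males, -0.17 to 0.053 in females, -0.0856 to 0.0239 with both sexes, -0.0192 to 0.20 for the interaction, -0.24 to -0.0787 between the sexes in WT and -0.17 to 0.0015 in LKO, so its sign turned in all but WT. Near-zero differences reversed sign: Cxcl10 in females was 0.0152 under upper-quartile scaling and 0.0217 under edgeR's newer method, and between the sexes in LKO, Cxcl9 was -0.0217 under upper-quartile scaling and Cxcl10 -0.0225 and -0.0085 under those settings. With 1 library left out, values ranged, in females, from -0.34 to 0.17 for Cxcl9, -0.24 to 0.16 for Cxcl10, -0.04 to 0.15 for Gbp5, -0.0455 to 0.0928 for Irf9, -0.0052 to 0.24 for Psmb8 and -0.0221 to 0.72 for Tgtp1; in the interaction, from -0.17 to 0.0165 for Stat2, -0.18 to 0.0183 for B2m and -0.23 to 0.0435 for Xaf1; and between the sexes in LKO, from -0.18 to 0.32 for Cxcl9 and -0.12 to 0.26 for Cxcl10. The cause of these changes was not tested.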
